A study of Mus musculus with 77 samples.

Results

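The genes described here belong by symbol to families of enzymes that write and erase histone methylation and histone acetylation. They are 63 genes, read by 152 probe sets, out of 18194 genes with an unambiguous symbol and 45101 probe sets on the array. The members are the genes whose symbols belong to the Kdm, Kmt2, Kmt5, Setd, Ezh, Ehmt, Hdac, Kat and Sirt families, without a claim that each acts on histones. Each is given by its brightest probe set. Of the 63 genes, 62 were bright enough to be tested, while Kdm1b, a lysine demethylase, fell below the filter on mean signal (3.55 on the log2 scale). Kdm1b averaged 3.27 with saline, 3.80 at the low dose and 4.32 at the high dose of levodopa in lesioned dSPN, the neurons defined below. It was left out of the main fit and entered only a fit without the filter, whose result for it is not given here. The tested genes comprise 8 genes of families that write methylation on lysine 4 of histone H3 (H3K4): Kmt2a to Kmt2e, Setd1a, Setd1b and Setd7. They are called H3K4 writers below by family, without a claim that each, Kmt2e above all, writes the mark itself. A further 9 are other histone methyltransferases (Ehmt1, Ehmt2, Ezh1, Ezh2, Kmt5a, Kmt5b, Kmt5c, Setd2 and Setd5), and 3 are further SET-domain proteins (Setd3, Setd4 and Setd6). The others are 17 Kdm demethylases, 7 Kat acetyltransferases, 4 class I, 4 class IIa and 3 class IIb or class IV histone deacetylases, and 7 sirtuins.

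Histone methyltransferases and acetyltransferases add small marks to histone tails, and demethylases, deacetylases and sirtuins take them off. Methylation of H3K4 goes with active promoters and enhancers, methylation of H3K9 and H3K27 with silent chromatin, and acetylation with open chromatin. In striatal neurons these enzymes are studied for their part in lasting gene responses to dopamine and to drugs of abuse.

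RNA bound to a tagged ribosomal protein was purified from single mice (translating ribosome affinity purification, TRAP) and measured on 77 arrays. The tag, EGFP-L10a, was carried by Drd1::EGFP-L10a mice (line CP73) in direct pathway spiny projection neurons (dSPN), or by Drd2::EGFP-L10a mice (line CP101) in indirect pathway spiny projection neurons (iSPN). All were hemizygous bacterial artificial chromosome transgenics, male, 9 to 14 weeks old and on a C57BL/6J background, so each cell type is defined by the promoter of 1 transgenic line. Lesioned mice had 6-hydroxydopamine (6-OHDA, 3.2 µg/µl), a toxin that kills dopamine neurons, injected in the right medial forebrain bundle. Only those whose turning and limb use showed a successful lesion went on to treatment. They were then given daily injections of saline (11 dSPN and 7 iSPN arrays), low-dose levodopa (12 dSPN and 8 iSPN arrays; 1 mg/kg on days 1 to 3, then 2 mg/kg on days 4 to 9) or high-dose levodopa (11 dSPN and 8 iSPN arrays; 3 mg/kg, then 6 mg/kg). Levodopa is the precursor of dopamine and was given with 12 mg/kg benserazide. Mock-lesioned mice received ascorbate in saline at surgery and saline afterwards (10 arrays in each line). The dorsal striatum of the operated side was used.

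Values are log2 signals normalised by RMA, and a change is a difference of log2 group means with its standard error (SE). A gene was called changed at a Benjamini-Hochberg adjusted p under 0.05 in a limma fit to all 77 arrays, adjusted over 13271 genes. The median correlation of an array with the others of its group lay between 0.939 and 0.9796. The labels were borne out by the receptors: mean Drd1 signal was 11.80 in mock-lesioned dSPN and 10.07 in mock-lesioned iSPN, and mean Drd2 signal was 7.55 in mock-lesioned dSPN and 12.42 in mock-lesioned iSPN. For this report the arrays were split into 7 stretches of consecutive array numbers (runs), none of which holds both lines. A new run begins where the last number in the sample titles starts again from a lower value. The labels do not state this split, and leave unsaid whether a run was a day, a scan or something else.

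The promoters of 4 enzymes described below are shown first, as examples of messages that changed at both doses in dSPN: Setd4, Kdm7a and Hdac5 rose under levodopa and Kmt2c fell. The sequences are RefSeq's (GRCm38.p6), 250 bases before to 50 bases after the start, written 5′ to 3′ on the gene's own strand, which is the minus strand in each case. Setd4 lies at chr16:93603766-93604065, Kdm7a at chr6:39206724-39207023, Hdac5 at chr11:102230123-102230422 and Kmt2c at chr5:25498734-25499033. Capitals mark every match, on either strand, to 4 motifs of activity-regulated factors: the cAMP response element TGACGTCA, the shorter core of that element, TGACG, the AP-1 site TGANTCA and the core of the EGR1 motif, GCGNGGGCG. The full response element contains the short core, so such a match counts for both.
Setd4: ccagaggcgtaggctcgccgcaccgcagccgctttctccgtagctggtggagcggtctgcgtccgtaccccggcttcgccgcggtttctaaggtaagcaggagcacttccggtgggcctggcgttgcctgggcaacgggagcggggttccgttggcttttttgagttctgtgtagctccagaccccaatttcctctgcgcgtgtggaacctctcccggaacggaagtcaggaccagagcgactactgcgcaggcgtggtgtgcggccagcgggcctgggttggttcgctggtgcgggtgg
Kdm7a: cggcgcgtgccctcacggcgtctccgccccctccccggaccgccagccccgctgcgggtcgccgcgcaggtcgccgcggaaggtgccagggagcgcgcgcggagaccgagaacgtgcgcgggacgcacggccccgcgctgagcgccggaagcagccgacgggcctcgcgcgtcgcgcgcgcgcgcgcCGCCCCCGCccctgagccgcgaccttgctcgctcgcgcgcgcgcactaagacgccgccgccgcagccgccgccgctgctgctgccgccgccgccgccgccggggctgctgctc
Hdac5: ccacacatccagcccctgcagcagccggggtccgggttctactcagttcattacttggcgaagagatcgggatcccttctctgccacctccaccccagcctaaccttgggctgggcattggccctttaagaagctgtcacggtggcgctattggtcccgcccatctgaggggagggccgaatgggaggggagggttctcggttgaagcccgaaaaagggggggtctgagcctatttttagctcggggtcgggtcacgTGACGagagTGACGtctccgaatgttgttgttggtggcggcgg
Kmt2c: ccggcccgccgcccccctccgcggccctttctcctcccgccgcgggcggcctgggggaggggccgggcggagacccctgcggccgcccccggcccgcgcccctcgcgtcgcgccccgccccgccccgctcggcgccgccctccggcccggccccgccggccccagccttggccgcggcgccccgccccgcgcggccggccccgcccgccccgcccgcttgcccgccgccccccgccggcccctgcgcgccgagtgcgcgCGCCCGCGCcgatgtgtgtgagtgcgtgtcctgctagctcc

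Kdm7a and Kmt2c each hold 1 EGR1 core, Hdac5 holds 2 short cores of the cAMP response element, and the Setd4 window holds none of the 4 motifs. Promoters of 51 of the 63 enzymes were in the sequence table. The EGR1 core was in 5 of these 51 windows (9.8%), against 5.55% of all 27025 promoter windows. The short core was in 15 of 51 (29.4%), against 21% of all windows. The full response element was in 0 of 51, against 1.88% of all, and the AP-1 site in 3 of 51 (5.88%), against 7.93%. Of the enzymes called at the high dose in dSPN, 6 that rose and 23 that fell had a window, and the EGR1 core was in 2 and 3 of these. The short core was in 2 and 6 of them, the AP-1 site in 0 and 2, and the full response element in 0 and 0. A match describes the letters and is not evidence of binding.

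Many histone enzymes of lesioned dSPN differed from saline at both doses of levodopa. At the high dose 8 of 62 rose and 29 fell, and at the low dose 9 rose and 24 fell. The background for these counts is large: at the high dose 45.6% of all 13271 genes were called (20.1% higher and 25.5% lower), and at the low dose 34.1% (15.1% higher and 19% lower). The enzymes were called in 59.7% and 53.2% of cases, and their median change was -0.34 at the high dose and -0.22 at the low dose, against medians of -0.04 at both doses over all genes. Both doses were set against the same 11 saline arrays. None of the low-dose arrays shares a run with these, and with run as a fixed block 10 of the 33 low-dose calls were kept. Over all genes that fit called 13.9% at the low dose. The heat map of changes by role shows the falls of the demethylases and of the large H3K4 writers in the dSPN columns.

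**Figure D1:**
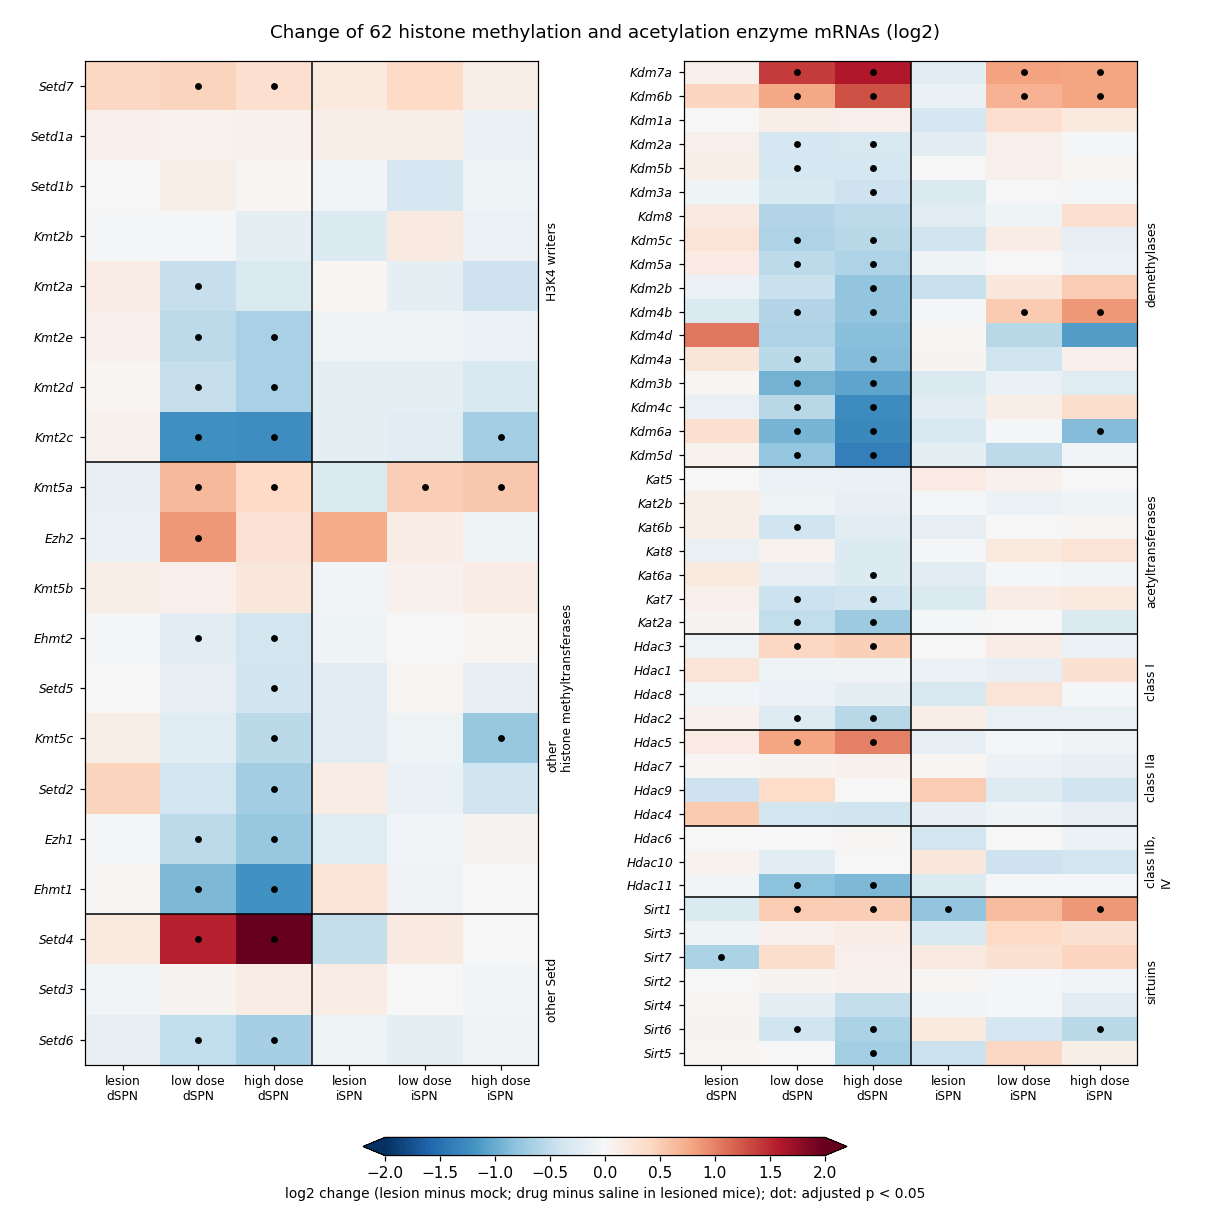
Change of the 62 tested enzymes (rows, grouped by role and ordered by the high-dose change in dSPN) in 6 comparisons (columns); colour gives the log2 change (lesion minus mock, or levodopa minus saline in lesioned mice), and a dot marks an adjusted p under 0.05. The dSPN dose columns carry 33 and 37 dots, the iSPN dose columns 4 and 9, and each lesion column 1.

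Of the 17 demethylases tested, 2 rose (Kdm7a and Kdm6b) and 12 fell in dSPN at the high dose, with a median of -0.61, against 20.1% of all genes higher and 25.5% lower. At the low dose 2 rose and 10 fell, with a median of -0.55, against 15.1% of all genes higher and 19% lower. Kdm7a removes methyl groups from H3K9 and H3K27. In lesioned dSPN its signal ran from 9.75 to 10.28 with saline (median 10.01), from 11.19 to 11.64 at the low dose (median 11.34) and from 11.41 to 11.78 at the high dose (median 11.52). In mock-lesioned dSPN it ran from 9.39 to 10.31 (median 9.88). Every levodopa array lay above every saline array. The change was 1.60 at the high dose (SE 0.10, adjusted p = 7.51e-23), or 3.04-fold, and 1.40 at the low dose (SE 0.10, adjusted p = 5.54e-20), or 2.64-fold. Kdm7a rose in lesioned iSPN as well, by 0.79 at the high dose (SE 0.12, adjusted p = 3.16e-06) and 0.80 at the low dose (SE 0.12, adjusted p = 9.15e-06). There the signal ran from 9.72 to 10.44 with saline (median 10.04), from 10.40 to 11.32 at the low dose (median 10.86) and from 10.54 to 11.24 at the high dose (median 10.77), so that only the high-dose range cleared the saline range. The rise was larger in dSPN, by 0.81 at the high dose (SE 0.16, adjusted p = 4.81e-05) and 0.60 at the low dose (SE 0.16, adjusted p = 0.00469).

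Kdm6b removes trimethylation from H3K27 and is known as an inducible demethylase. In lesioned dSPN its signal ran from 9.84 to 10.85 with saline (median 10.24), from 10.65 to 11.51 at the low dose (median 10.93) and from 11.18 to 11.75 at the high dose (median 11.50). In mock-lesioned dSPN it ran from 9.08 to 10.66 (median 9.77). The high-dose range lay wholly above the saline range, and the low-dose range overlapped both. The change was 1.27 at the high dose (SE 0.14, adjusted p = 8.11e-12), 0.77 at the low dose (SE 0.14, adjusted p = 5.87e-06) and 0.49 between the high and the low dose (SE 0.14, adjusted p = 0.018). In lesioned iSPN Kdm6b rose by 0.79 at the high dose (SE 0.17, adjusted p = 0.001) and by 0.70 at the low dose (SE 0.17, adjusted p = 0.00843). The iSPN signal ran from 10.33 to 11.35 with saline (median 10.74), from 11.15 to 11.91 at the low dose (median 11.59) and from 11.43 to 12.07 at the high dose (median 11.49), and here too the high-dose range cleared the saline range. The difference between lines did not pass for Kdm6b (0.48 at the high dose, SE 0.22, adjusted p = 0.114). The change in dSPN at the low dose did not pass with run as a fixed block (0.55, adjusted p = 0.104).

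Kdm6a, the X-linked relative of Kdm6b that acts on the same mark, fell in dSPN while Kdm6b rose. Its signal in lesioned dSPN ran from 7.89 to 8.60 with saline (median 8.22), from 6.61 to 8.03 at the low dose (median 7.43) and from 6.07 to 7.51 at the high dose (median 7.05). In mock-lesioned dSPN it ran from 7.20 to 8.58 (median 7.93). The high-dose range lay wholly below the saline range. The change was -1.29 at the high dose (SE 0.19, adjusted p = 1.86e-08) and -0.93 at the low dose (SE 0.18, adjusted p = 2.8e-05). In lesioned iSPN Kdm6a fell at the high dose (-0.87, SE 0.23, adjusted p = 0.00688) and stood at -0.05 at the low dose.

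The sex-chromosome pair of H3K4 demethylases also fell in dSPN. Kdm5d, on the Y chromosome, was scattered under levodopa: its signal ran from 7.71 to 8.36 with saline (median 7.87), from 6.23 to 8.33 at the low dose (median 7.20) and from 4.75 to 8.29 at the high dose (median 6.75). The ranges overlapped, with a change of -1.37 at the high dose (SE 0.28, adjusted p = 3.16e-05) and -0.78 at the low dose (SE 0.27, adjusted p = 0.0205). Kdm5c, its X-linked counterpart, fell by 0.56 at the high dose (SE 0.16, adjusted p = 0.0033) and by 0.61 at the low dose (SE 0.16, adjusted p = 0.00153). Its probe sets disagreed, however, as described below. The autosomal relatives Kdm5a (-0.61 at the high dose and -0.52 at the low dose) and Kdm5b (-0.35 at both doses) fell with them.

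The Kdm4 enzymes remove methyl groups from H3K9 and H3K36. Kdm4c fell by 1.26 at the high dose in dSPN (SE 0.14, adjusted p = 2.26e-12) and by 0.55 at the low dose. Arrays ran from 6.63 to 7.43 with saline (median 7.05), from 5.96 to 6.99 at the low dose (median 6.47) and from 5.25 to 6.20 at the high dose (median 5.96). The high-dose range lay wholly below the saline range, and the high dose gave a lower signal than the low dose (-0.71, SE 0.13, adjusted p = 0.000166). Kdm4a fell by 0.87 at the high dose and by 0.55 at the low dose. Kdm4b changed in opposite directions in the lines. In lesioned dSPN its signal ran from 7.39 to 8.11 with saline (median 7.61), from 6.43 to 8.01 at the low dose (median 7.10) and from 6.36 to 7.56 at the high dose (median 6.89). In lesioned iSPN it ran from 7.44 to 8.48 with saline (median 7.99), from 8.03 to 8.87 at the low dose (median 8.55) and from 8.40 to 9.35 at the high dose (median 8.87). The ranges with saline and levodopa overlapped in both lines. The high-dose change was -0.78 in dSPN (SE 0.13, adjusted p = 9.21e-07) and 0.86 in iSPN (SE 0.16, adjusted p = 0.000113), and the change in dSPN minus that in iSPN was -1.65 (SE 0.21, adjusted p = 1.82e-09). At the low dose this difference was -1.11 (SE 0.21, adjusted p = 4.58e-05).

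Kdm3b, which acts on H3K9, fell in dSPN by 1.06 at the high dose (SE 0.16, adjusted p = 4.38e-08) and by 0.95 at the low dose (SE 0.15, adjusted p = 8.43e-07). Kdm3b arrays ran from 6.48 to 7.60 with saline (median 7.19), from 5.58 to 6.93 at the low dose (median 6.28) and from 5.72 to 6.92 at the high dose (median 6.13), with some overlap. Kdm2b (-0.78) and Kdm3a (-0.41) fell at the high dose, and Kdm2a fell at both (-0.32 at the high dose and -0.33 at the low dose). Kdm1a, the H3K4 demethylase of the CoREST complex, stood at 0.10 (SE 0.11, adjusted p = 0.495) at the high dose and 0.13 (SE 0.11, adjusted p = 0.383) at the low dose. Kdm8 (-0.52) and the dim Kdm4d (-0.83, SE 0.43, adjusted p = 0.108) did not pass at the high dose.

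**Figure D2:**
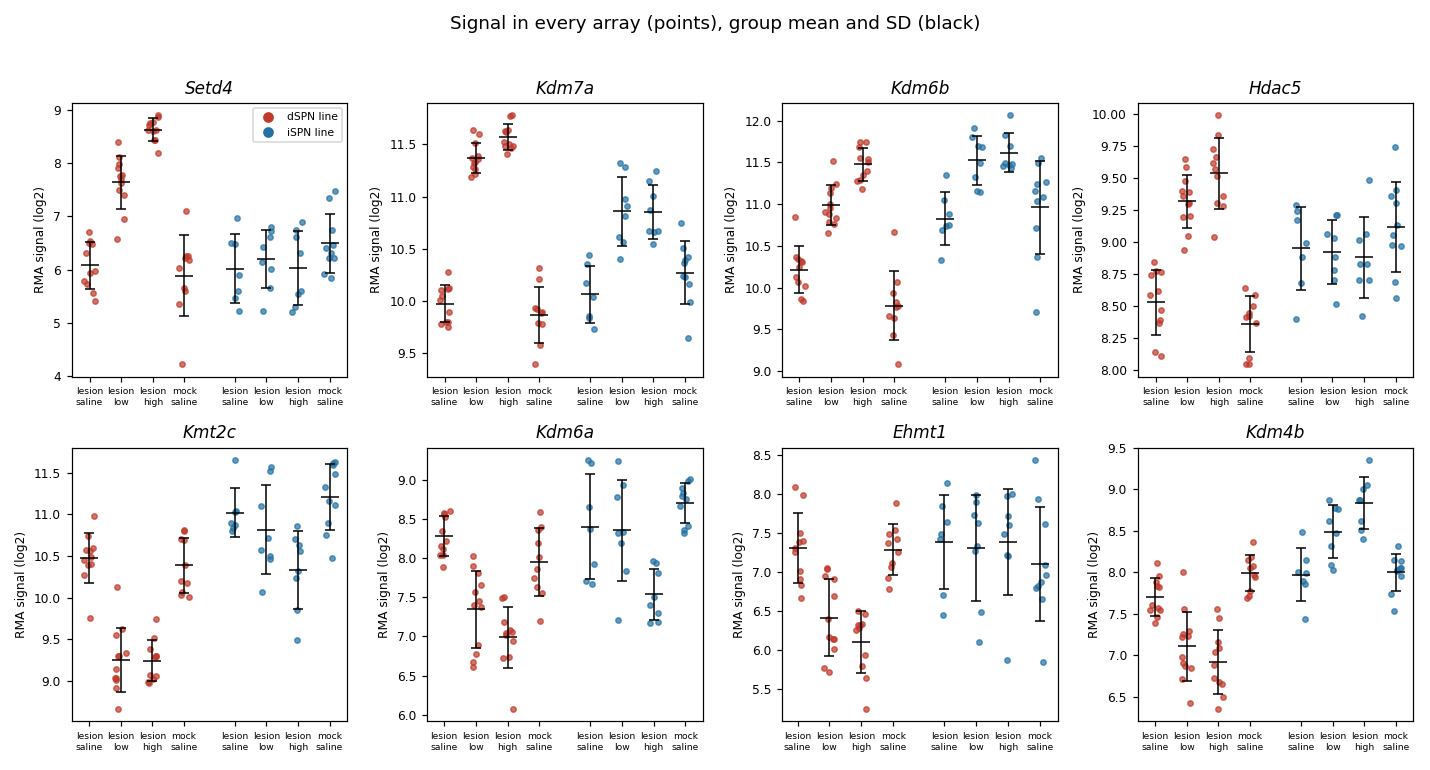
RMA signal (log2, vertical axes, which do not start at 0) of 8 enzymes in every array, by line and group; points are arrays, black bars the group mean and SD. Setd4 and Hdac5 rise over saline in dSPN and not in iSPN, Kdm7a and Kdm6b in both lines, and Kdm4b falls in dSPN and rises in iSPN.

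The largest change of the 62 enzymes in the lesion and dose comparisons was that of Setd4, a SET-domain protein whose substrates are less settled than those of its relatives. In lesioned dSPN its signal ran from 5.42 to 6.71 with saline (median 5.98), from 6.58 to 8.39 at the low dose (median 7.73) and from 8.18 to 8.90 at the high dose (median 8.62). In mock-lesioned dSPN it ran from 4.22 to 7.10 (median 6.10). Every high-dose array lay above every saline array, and the low-dose arrays stood between with some overlap. Setd4 rose by 2.54 at the high dose (SE 0.23, adjusted p = 2.15e-15), or 5.82-fold, and by 1.56 at the low dose (SE 0.23, adjusted p = 4.44e-08), or 2.94-fold. The high dose exceeded the low dose by 0.98 (SE 0.23, adjusted p = 0.0026), which did not pass with run as a fixed block (0.75, adjusted p = 0.388). In lesioned iSPN the signal ran from 5.23 to 6.98 with saline (median 5.89), from 5.23 to 6.79 at the low dose (median 6.29) and from 5.20 to 6.90 at the high dose (median 5.96). These ranges lay on top of each other, with a high-dose change of 0.01 (95% confidence interval -0.55 to 0.57). The difference between lines was 2.53 at the high dose (SE 0.36, adjusted p = 5.73e-08) and 1.38 at the low dose (SE 0.36, adjusted p = 0.00441). The other 2 proteins of this kind did not follow it: Setd6 fell in dSPN by 0.67 at the high dose and 0.49 at the low dose, and Setd3 stood at 0.15 at the high dose and 0.06 at the low dose.

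Among the genes grouped as H3K4 writers, Kmt2c, Kmt2d and Kmt2e fell in dSPN at both doses. Kmt2c, which marks enhancers with H3K4 monomethylation, fell by 1.23 at the high dose (SE 0.16, adjusted p = 5.18e-10) and by 1.22 at the low dose (SE 0.15, adjusted p = 8.53e-10). Its signal ran from 9.76 to 10.98 with saline (median 10.49), from 8.66 to 10.12 at the low dose (median 9.22) and from 8.98 to 9.75 at the high dose (median 9.29). In mock-lesioned dSPN it ran from 10.01 to 10.81 (median 10.29). The high-dose range lay just below the saline range, and 1 low-dose array reached into it. Its close relative Kmt2d fell by 0.66 at the high dose and by 0.45 at the low dose, and Kmt2e by 0.64 and 0.52 at the same doses. Kmt2a missed the threshold at the high dose (-0.28, SE 0.13, adjusted p = 0.06) and passed it at the low dose (-0.46, SE 0.12, adjusted p = 0.00191). The high dose minus the low dose was 0.18 for Kmt2a (SE 0.12, adjusted p = 0.438). Kmt2b passed at neither dose (-0.19 at the high dose and -0.03 at the low dose). Setd7 rose by 0.34 at the high dose (adjusted p = 0.0389) and by 0.45 at the low dose (adjusted p = 0.00612). Of the 8 H3K4 writers 1 rose and 3 fell at the high dose (50% called, against 45.6% of all genes), and 1 rose and 4 fell at the low dose (62.5%, against 34.1%). In lesioned iSPN Kmt2c alone of them passed, at the high dose (-0.69, SE 0.19, adjusted p = 0.0121).

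Of the 9 other histone methyltransferases 1 rose and 6 fell at the high dose in dSPN (77.8% called, against 45.6% of all genes), and 2 rose and 3 fell at the low dose (55.6%, against 34.1%). Ehmt1, which with Ehmt2 forms the main H3K9 dimethylase, fell by 1.21 (SE 0.23, adjusted p = 1.03e-05), and by 0.89 at the low dose (SE 0.23, adjusted p = 0.00113). Its signal ran from 6.66 to 8.09 with saline (median 7.31), from 5.71 to 7.06 at the low dose (median 6.28) and from 5.24 to 6.49 at the high dose (median 6.28). The high-dose range lay wholly below the saline range. Ehmt2 fell by 0.37 at the high dose (SE 0.08, adjusted p = 0.000189) and by 0.23 at the low dose (SE 0.08, adjusted p = 0.0276). The H3K27 methyltransferases of the Polycomb complex parted: Ezh1, the form of mature cells, fell by 0.75 at the high dose and 0.53 at the low dose, and Ezh2, the form of dividing cells, rose at the low dose (0.87, SE 0.26, adjusted p = 0.0064) and did not pass at the high dose (0.29, SE 0.27, adjusted p = 0.403). For Ezh2 the high dose minus the low dose was -0.59 (SE 0.26, adjusted p = 0.185). Kmt5a, which adds the first methyl group to lysine 20 of histone H4, rose by 0.40 at the high dose (SE 0.11, adjusted p = 0.00127) and by 0.64 at the low dose (SE 0.10, adjusted p = 4.7e-07). It rose in iSPN too, by 0.54 at the high dose (SE 0.13, adjusted p = 0.00279) and by 0.49 at the low dose (SE 0.13, adjusted p = 0.0137). Kdm6b, Kdm7a and Kmt5a were the 3 enzymes called higher at both doses in both lines. The share of all genes called in this way was not counted. In separate limma fits of the lines the low-dose calls of Kdm6b (adjusted p = 0.0771) and Kmt5a (adjusted p = 0.104) in iSPN were lost. They were also lost in limma with the probe sets of a gene averaged (adjusted p = 0.0684 for Kdm6b and 0.0875 for Kmt5a). Setd2 (-0.70), Kmt5c (-0.54) and Setd5 (-0.40) fell in dSPN at the high dose.

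Of the 7 acetyltransferases 0 rose and 3 fell at each dose in dSPN (42.9% called, against 45.6% of all genes at the high dose and 34.1% at the low dose). Kat2a, the catalytic unit of the SAGA complex, fell by 0.72 at the high dose and by 0.50 at the low dose, and Kat7 by 0.40 and 0.44 at the same doses. Kat6a fell at the high dose (-0.28) and Kat6b at the low dose (-0.40). Kat2b, the close relative of Kat2a, stood at -0.16 at the high dose (SE 0.22, adjusted p = 0.566) and -0.11 at the low dose (SE 0.21, adjusted p = 0.744).

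The deacetylases moved 1 by 1 rather than by class. Hdac5, a class IIa enzyme that shuttles between nucleus and cytoplasm with neuronal activity, rose in dSPN by 1.00 at the high dose (SE 0.12, adjusted p = 2.36e-11) and by 0.79 at the low dose (SE 0.11, adjusted p = 4.1e-08). Its signal ran from 8.11 to 8.84 with saline (median 8.59), from 8.94 to 9.64 at the low dose (median 9.33) and from 9.04 to 9.99 at the high dose (median 9.56). In mock-lesioned dSPN it ran from 8.05 to 8.65 (median 8.42), so that every levodopa array lay above every saline and every mock array. In lesioned iSPN Hdac5 ran from 8.40 to 9.29 with saline (median 8.99), from 8.51 to 9.21 at the low dose (median 8.96) and from 8.43 to 9.48 at the high dose (median 8.83). The iSPN change at the high dose was -0.07 (95% confidence interval -0.35 to 0.21), and the difference between lines was 1.07 (SE 0.18, adjusted p = 3.38e-06). At the high dose in dSPN the other class IIa enzymes missed the threshold: Hdac4 stood at -0.39 (SE 0.17, adjusted p = 0.0576), Hdac7 at 0.09 and Hdac9 at -0.01 (SE 0.18, adjusted p = 0.975).

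Of the class I deacetylases, Hdac2, known in mouse as a brake on memory-related genes, fell by a small and regular amount, 0.55 at the high dose (SE 0.05, adjusted p = 1.62e-15) and 0.26 at the low dose (SE 0.05, adjusted p = 1.78e-05). Its signal ran from 12.01 to 12.30 with saline, from 11.69 to 12.04 at the low dose and from 11.37 to 11.76 at the high dose, and the high-dose range lay wholly below the saline range. The doses differed by -0.30 (SE 0.05, adjusted p = 1.79e-05). Hdac3, the deacetylase of the NCoR corepressor complex, rose by 0.48 at the high dose (SE 0.13, adjusted p = 0.00121) and 0.41 at the low dose. Hdac1 stood at -0.07 at the high dose (SE 0.14, adjusted p = 0.699) and -0.10 at the low dose (SE 0.14, adjusted p = 0.627). Hdac11, the class IV enzyme, fell by 0.89 at the high dose (SE 0.10, adjusted p = 4.92e-12) and 0.82 at the low dose (SE 0.10, adjusted p = 1.01e-10), and its high-dose range (8.92 to 9.86) lay below its saline range (10.00 to 10.83). Of the sirtuins, NAD-dependent deacylases, Sirt1 rose by 0.50 at the high dose (SE 0.19, adjusted p = 0.0259) and 0.51 at the low dose (SE 0.19, adjusted p = 0.0259). Sirt6 fell by 0.63 at the high dose and by 0.39 at the low dose, and Sirt5 fell at the high dose (-0.68), where it also lay below the low dose (-0.69, SE 0.22, adjusted p = 0.043).

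The calls at both doses were counted gene by gene. In dSPN 30 of 62 enzymes were called at both doses in 1 direction, 8 higher and 22 lower, against 30.2% of all genes (13.4% higher and 16.8% lower). A further 7 were called at the high dose alone and 3 at the low dose alone (Ezh2, Kmt2a and Kat6b). Over all genes 45.6% were called at the high dose and 34.1% at the low dose, and the share called at 1 dose alone was not counted. These comparisons share their saline arrays. Only 5 of 62 enzymes differed between the doses in dSPN (8.06%, against 6.8% of all genes, 3.14% higher and 3.66% lower): Setd4 and Kdm6b were higher and Kdm4c, Sirt5 and Hdac2 lower at the high dose. Most high-dose arrays lie in run 2 and most low-dose arrays in run 3. Fitted with run as a fixed block, Kdm4c (-0.98, adjusted p = 0.00388) and Hdac2 (-0.31, adjusted p = 0.0118) still passed, and Setd4 (0.75, adjusted p = 0.388), Kdm6b (0.66, adjusted p = 0.129) and Sirt5 (-0.75, adjusted p = 0.383) did not. With run 3 alone (2 high-dose and 11 low-dose arrays) 0 of the 5 passed, and all kept their sign. In all, 12 of 62 enzymes had high-dose and saline ranges in dSPN that did not overlap, against 11.4% of all genes (6.34% above saline and 5.05% below it). The 12 enzymes were Setd4, Kdm7a, Kdm6b and Hdac5 above saline and Ehmt1, Hdac2, Hdac11, Kdm4c, Kdm6a, Kmt2c, Kmt2d and Kmt2e below it.

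Markers of oligodendrocytes moved with these falls. Of 11 tested, 10 fell in dSPN at each dose (median -1.28 at the high dose and -1.02 at the low dose), and their mean signal ran from 7.18 to 8.38 with saline, from 6.13 to 7.19 at the low dose and from 5.92 to 7.11 at the high dose. Mbp, a myelin protein gene, averaged 10.62 with saline, 9.60 at the low dose and 9.25 at the high dose. Astrocyte markers fell in 6 of 9 cases at the high dose and 4 of 9 at the low dose, and of 9 microglial markers 1 rose at each dose and 0 fell. Neuronal markers moved as well. Of 8 dSPN markers 2 rose and 4 fell at the high dose (median -0.35), and 2 rose and 2 fell at the low dose (median -0.24). Of 5 iSPN markers 3 fell at each dose and 1 rose at the high dose (medians -0.72 at the high dose and -0.67 at the low dose). Of 7 markers shared by spiny projection neurons 6 fell and 1 rose at each dose (medians -0.21 at the high dose and -0.20 at the low dose). The part of these other markers in the enzymes' changes was not tested. The tag was carried in dSPN or in iSPN, so oligodendrocyte and astrocyte RNA was untagged. In purified RNA of this kind fewer cells of a type, less RNA per cell and less carry-over of untagged RNA cannot be told apart. With the oligodendrocyte mean as a covariate 23 of the 37 calls at the high dose were kept. Setd4 (2.52), Kdm7a (1.80), Kdm6b (1.60), Hdac5 (0.94), Kdm4c (-1.26), Ehmt1 (-1.18) and Hdac11 (-0.95) were as large or nearly so. The falls of Kdm6a (-0.69) and Kmt2c (-0.60) were smaller, and so were those of Kmt2d (-0.25) and Kdm2a (-0.12), whose calls were lost. Other calls were lost at values nearer to those without the covariate, among them Sirt1 (0.55), Kdm3a (-0.35), Kdm2b (-0.56), Setd2 (-0.49) and Kdm5c (-0.37). At the low dose 18 of 33 calls were kept, and those lost included Kdm6a (-0.40, adjusted p = 0.169), Kdm5d (-0.49, adjusted p = 0.325) and Ezh2 (0.70, adjusted p = 0.12).

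The runs limit the low-dose comparison more than the high-dose one. With run as a fixed block 30 of the 37 high-dose calls were kept, and with run 2 alone (9 high-dose and 6 saline arrays) 32 of 37. Low-dose and saline arrays of dSPN share no run, and 10 of the 33 low-dose calls were kept with the block: those of Setd4 (1.88), Kdm7a (1.43), Hdac5 (0.94), Kmt5a (0.49), Kdm3b (-0.98), Kmt2c (-0.96), Hdac11 (-0.77), Kdm4b (-0.63), Kmt2d (-0.56) and Kmt2e (-0.49).

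In lesioned iSPN few enzymes passed. At the high dose 5 of 62 rose and 4 fell (14.5%, against 9.86% of all genes, 6.27% higher and 3.59% lower), and at the low dose 4 rose and 0 fell (6.45%, against 4.18% of all genes, 2.41% higher and 1.77% lower; at an unadjusted p under 0.05 there were 8 higher and 4 lower). The median change was -0.05 at the high dose and -0.01 at the low dose, against 0.01 and 0.00 over all genes. Beside Kdm4b, Kdm6b, Kdm7a and Kmt5a, the high dose raised Sirt1 (0.87, SE 0.23, adjusted p = 0.00767). Its signal ran from 5.09 to 5.91 at the high dose (median 5.61) and from 3.71 to 5.08 with saline (median 4.96), so the ranges just missed each other. The falls beside those of Kdm6a and Kmt2c were Kmt5c (-0.77, SE 0.26, adjusted p = 0.0456), a methyltransferase of lysine 20 of histone H4, and Sirt6 (-0.54, SE 0.15, adjusted p = 0.0135). Ehmt1 (0.00, SE 0.28, adjusted p = 1), Hdac2 (-0.14, SE 0.06, adjusted p = 0.142) and Hdac11 (-0.04), which fell in dSPN, did not pass. The other enzymes of the panel followed in every comparison did not pass at the high dose either: Kmt2a stood at -0.41 (SE 0.15, adjusted p = 0.0695), Hdac1 at 0.31 (SE 0.17, adjusted p = 0.26), Ehmt2 at 0.04, Kdm1a at 0.19, Kdm5c at -0.16, Hdac4 at -0.17, Hdac9 at -0.41, Ezh2 at -0.09 and Kat2b at -0.09. At the low dose Kdm4b passed narrowly (0.52, SE 0.16, adjusted p = 0.0487).

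None of the 11 oligodendrocyte markers passed in iSPN at either dose (median -0.38 at the high dose and 0.02 at the low dose). With run as a fixed block Kdm6a (-1.22), Kdm6b (0.95) and Kdm7a (0.75) kept their high-dose calls in iSPN and the other 6 did not, and Kmt5a (0.59) and Kdm7a (0.83) kept their low-dose calls. With run 6 alone (8 high-dose and 2 saline arrays) Kdm6a alone passed (-1.42). No enzyme differed between the high and the low dose in iSPN in limma (0.173% of all genes did, 0.113% higher and 0.0603% lower), while 6 had an unadjusted p under 0.05. With run as a random block Kdm6a passed.

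**Figure D3:**
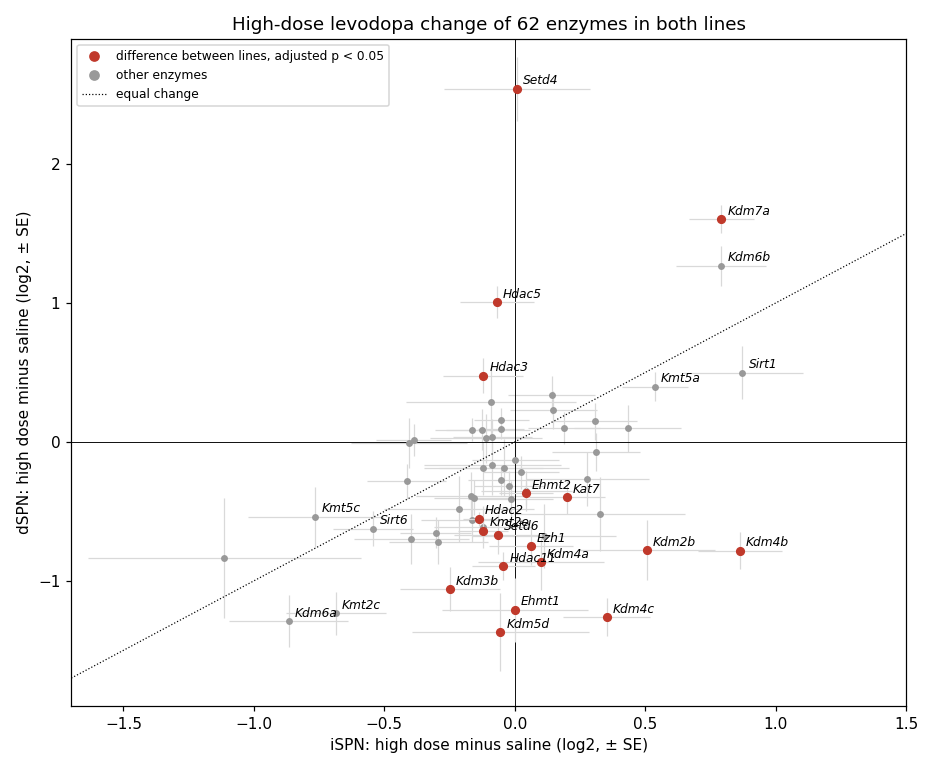
High-dose minus saline change (log2, with SE bars) of the 62 enzymes in dSPN (vertical axis) against iSPN (horizontal axis); red points have a difference between lines at adjusted p under 0.05 and the dotted line marks equal change. Setd4 and Hdac5 stand high at an iSPN change near 0, and Kdm4b and Kdm4c lie below 0 in dSPN and above it in iSPN.

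The drug effect was then compared between the lines directly. At the high dose the change in dSPN minus that in iSPN was positive for 4 enzymes and negative for 14 of 62 (29%, against 25% of all genes, 10.5% higher and 14.5% lower). The positive ones were Setd4, Hdac5, Kdm7a and Hdac3 (0.60, SE 0.20, adjusted p = 0.0187). The most negative beside Kdm4b were Kdm4c (-1.61, SE 0.22, adjusted p = 7.65e-09), Kdm5d (-1.31, SE 0.44, adjusted p = 0.0197), Kdm2b (-1.29, SE 0.34, adjusted p = 0.00263) and Ehmt1 (-1.21, SE 0.36, adjusted p = 0.00896), followed by Kdm4a (-0.97), Hdac11 (-0.85) and Ezh1 (-0.81). The falls of Kdm6a (difference -0.42), Kmt2c (-0.55) and Sirt6 (-0.08) did not pass this test. At the low dose 3 differences were positive and 9 negative (19.4%, against 14.8% of all genes, 6.99% higher and 7.79% lower), and Kmt2c (-1.02, SE 0.25, adjusted p = 0.00187) and Kdm6a (-0.89, SE 0.29, adjusted p = 0.0277) were among the negative ones. Neither of these passed with the oligodendrocyte covariate (Kmt2c -0.44, adjusted p = 0.225, and Kdm6a -0.34, adjusted p = 0.527) or with run as a fixed block (Kmt2c -0.63, adjusted p = 0.32, and Kdm6a -0.79, adjusted p = 0.285). Oligodendrocyte markers differed the same way, 5 of 11 at the high dose and 6 of 11 at the low dose being lower in dSPN relative to iSPN. With their mean as a covariate 16 of 18 high-dose calls were kept, those of Kdm5d (-1.11, adjusted p = 0.0691) and Hdac3 (0.48, adjusted p = 0.0805) being lost, and 6 of 12 low-dose calls. With run as a fixed block 11 of 18 and 3 of 12 were kept.

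Few of the enzymes passed after dopamine loss alone. After lesion in dSPN 0 of 62 rose and 1 fell (1.61%, against 2.48% of all genes, 0.64% higher and 1.84% lower), with 5 higher and 3 lower at an unadjusted p under 0.05. The fall was that of Sirt7, a sirtuin of the nucleolus, whose signal ran from 5.95 to 7.35 in lesioned dSPN (median 6.46) and from 6.10 to 7.56 in mock-lesioned dSPN (median 7.32). The ranges overlapped almost fully, with a change of -0.64 (SE 0.17, adjusted p = 0.0241) that did not pass with run as a fixed block (-0.50, adjusted p = 0.517). Kdm6b stood at 0.43 (SE 0.15, adjusted p = 0.11) and Hdac4 at 0.53 (SE 0.18, adjusted p = 0.102). The highest value, that of the dim Kdm4d (1.05, SE 0.44, adjusted p = 0.255), came with a wide scatter (4.36 ± 1.43 in lesioned dSPN, SD, n = 11, and 3.32 ± 0.31 in mock-lesioned dSPN, SD, n = 10). The remaining panel members lay between -0.41 (Hdac9) and 0.27 (Hdac1 and Kdm5c).

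In iSPN the lesion again gave 0 higher and 1 lower enzyme (1.61%, against 6.2% of all genes, 3.19% higher and 3.01% lower; 3 higher and 6 lower at an unadjusted p under 0.05). Sirt1 ran from 3.71 to 5.08 in lesioned iSPN (median 4.96) and from 4.33 to 6.34 in mock-lesioned iSPN (median 5.39), a change of -0.79 (SE 0.22, adjusted p = 0.0162) with overlapping ranges. It did not pass with run as a fixed block (-0.25, adjusted p = 0.915) or with the iSPN arrays fitted alone (adjusted p = 0.0875). Ezh2 stood at 0.74 (SE 0.31, adjusted p = 0.156), Hdac9 at 0.51 (SE 0.21, adjusted p = 0.15) and Kdm5c at -0.40 (SE 0.19, adjusted p = 0.237). The lesion effect differed between lines for 1 enzyme (4.86% of all genes, 1.65% higher and 3.21% lower): Hdac9, at -0.41 in dSPN and 0.51 in iSPN, gave a difference of -0.92 (SE 0.28, adjusted p = 0.0389). This too did not pass with run as a fixed block (-0.30, adjusted p = 0.892), and the second Hdac9 probe set stood at -0.12 in dSPN and 0.13 in iSPN.

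In mock-lesioned mice 22 of 62 enzymes differed between the lines (35.5%, against 22.5% of all genes, 11.6% higher and 10.9% lower), 4 being higher and 18 lower in dSPN. The higher ones were Hdac9 (0.57, SE 0.19, adjusted p = 0.0226), Kdm4c (0.44), Ezh1 (0.42) and Hdac2 (0.23, SE 0.05, adjusted p = 0.000607). Kmt5c (-1.25, SE 0.22, adjusted p = 1.42e-05) and Kdm6b (-1.18, SE 0.15, adjusted p = 3.9e-09) were the furthest towards iSPN. Kdm6b ran from 9.08 to 10.66 in dSPN (median 9.77) and from 9.71 to 11.55 in iSPN (median 11.12). Hdac5 ran from 8.05 to 8.65 in dSPN (median 8.42) and from 8.56 to 9.74 in iSPN (median 9.09), a difference of -0.76 (SE 0.12, adjusted p = 1.71e-06). For both, the line with the lower level was the one in which levodopa brought the larger fitted rise, although that difference passed only for Hdac5. This was not so for every enzyme lower in dSPN, since Kmt2c and Kdm6a fell there under levodopa. The levels are those of mock-lesioned mice, whereas the rises were measured in lesioned mice. The H3K4 writers were lower in dSPN in 6 of 8 cases, among them Kmt2c (-0.82), Kmt2d (-0.70) and Kmt2b (-0.61), as were Kdm6a (-0.75) and Kat6a (-0.61). Of the panel, Kdm5c (-0.58), Hdac4 (-0.49), Kmt2a (-0.43) and Kdm1a (-0.35) were lower, while Kat2b (-0.56, SE 0.23, adjusted p = 0.0675), Sirt1 (-0.36), Ezh2 (-0.41), Hdac1 (-0.11), Ehmt1 (0.18) and Ehmt2 (-0.00) did not pass. Since no run holds arrays of both lines, a difference between lines and one between runs cannot be told apart. Of 11 oligodendrocyte markers 9 were also lower in dSPN (mean signal 7.36 in dSPN and 8.25 in iSPN), and with their mean as a covariate 8 of the 22 calls were kept, Kdm6b (-0.92), Hdac5 (-0.81), Kmt5c (-1.10) and Hdac2 (0.24) among them.

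The enzymes with several probe sets allow a check within the array, since the probe sets of a gene target different stretches of its transcripts. Of the 8 enzymes that rose at the high dose in dSPN, 5 had further probe sets above the filter, 10 in number, and 9 of these rose while 1 did not pass. Setd4 rose with all 3 of its probe sets (2.54, 2.78 and 1.99). Kdm7a rose with its 3 bright ones (1.60, 2.29 and 2.42) and less or not at all with 2 dim ones (0.34 and 0.11). The brightest Kdm6b probe set is of a type that may bind other transcripts. Its other 2, both dim, rose as well (1.03 and 1.18) at the high dose, but not at the low dose (0.28 and 0.17). Of 38 further probe sets of the enzymes that fell, 22 fell, 15 did not pass and 1 went the other way, a dim one of Setd6. All 4 Kmt2c probe sets fell (-1.23, -1.13, -1.04 and -0.99), and 2 of 3 Kdm6a probe sets (-1.29 and -1.01; the third stood at 0.17). The 6 Kdm5c probe sets ran from -0.59 to 0.46. Both Kdm5d probe sets fell in dSPN, but in iSPN the dim one rose at the high dose (0.92) while the bright one stood at -0.06. Taking the mean of all probe sets per gene, the high-dose calls of Ehmt2, Kat6a, Kdm2a, Kdm5b, Kdm5c and Setd5 were lost.

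**Figure D4:**
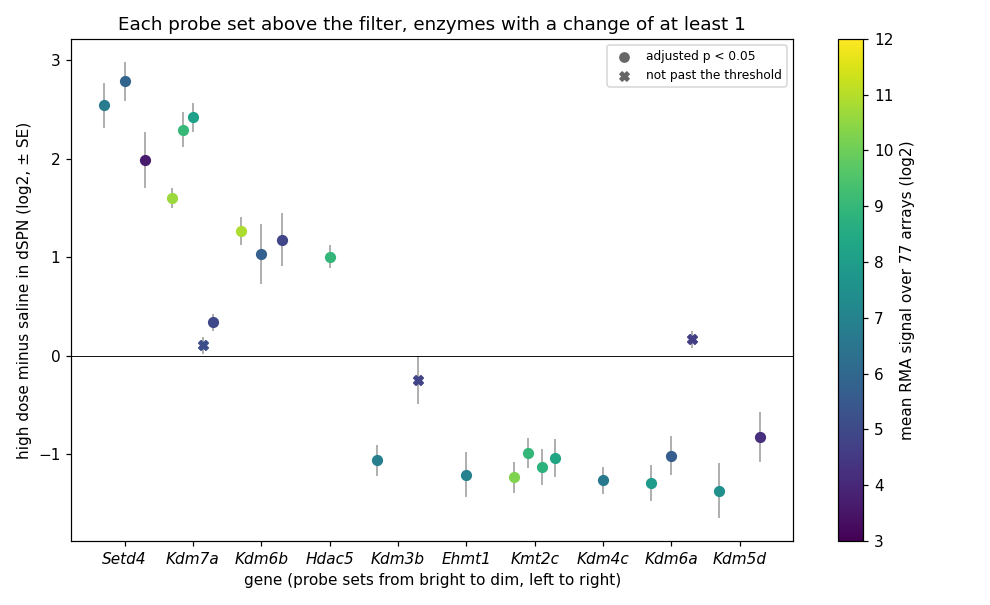
High-dose minus saline change in dSPN (log2, with SE bars) of each probe set above the filter for the 10 enzymes with a change of at least 1; within a gene the probe sets run from bright to dim, colour gives the mean signal, and crosses mark those that did not pass. The probe sets of Setd4, Kdm6b and Kmt2c agree in sign and size, and the crosses are all dim probe sets.

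Across the 6 comparisons of lesion, low dose and high dose, 41 of the 62 enzymes were called at least once, against 55.1% of all genes, and 21 in none. Those called in none were Hdac1, Hdac4, Hdac6, Hdac7, Hdac8, Hdac9, Hdac10, Kat2b, Kat5, Kat8, Kdm1a, Kdm4d, Kdm8, Kmt2b, Kmt5b, Setd1a, Setd1b, Setd3, Sirt2, Sirt3 and Sirt4. All groups share 1 estimate of the spread per gene in this fit, so the SE differs between comparisons only by the number of arrays. Over all genes the median SE was 0.15 for the high-dose change in dSPN and 0.18 for that in iSPN. The lowest median correlation of an array with its group was 0.9695 to 0.9742 in the dSPN groups and 0.939 to 0.9648 in the iSPN groups. With each line fitted alone, 4.35% of all genes rather than 9.86% were called at the high dose in iSPN, and 50% rather than 45.6% in dSPN.

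The partners of these enzymes, a list of subunits, cofactors and related writers and erasers of which 64 were tested, moved both ways in dSPN: 20 rose and 15 fell at the high dose (54.7%, against 45.6% of all genes) and 14 rose and 11 fell at the low dose (39.1%, against 34.1%). Jarid2, a cofactor of the Polycomb H3K27 methyltransferase, rose by 2.21 at the high dose (SE 0.15, adjusted p = 8.78e-21) and 1.84 at the low dose (SE 0.15, adjusted p = 4.12e-17) in dSPN, and by 1.05 at the high dose (SE 0.19, adjusted p = 4.66e-05) and 1.09 at the low dose (SE 0.19, adjusted p = 7.26e-05) in iSPN. At the high dose in dSPN the H3K9 methyltransferase Setdb1 (-1.59, SE 0.24, adjusted p = 8.09e-08) and the DNA demethylase Tet1 (-1.41, SE 0.26, adjusted p = 3.76e-06) fell, and Suv39h2, another H3K9 methyltransferase, rose (1.39, SE 0.21, adjusted p = 3.62e-08). At the low dose Tet1 (-1.39), Suv39h2 (1.23) and Rcor1, a scaffold of the CoREST complex (1.11, SE 0.14, adjusted p = 1.33e-09), were the furthest beside Jarid2. In iSPN 11 rose and 4 fell at the high dose (23.4%, against 9.86% of all genes), with Setmar (1.02), Rcor2 (0.87) and Prdm2 (-0.91), and 8 rose and 0 fell at the low dose (12.5%, against 4.18%), with the H3K79 methyltransferase Dot1l (1.08), Brpf3 (0.96) and Tet2 (0.71). None of the 64 was called after the lesion in either line.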

How the data were processed

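The deposited log2 values of 77 arrays (Affymetrix mouse expression arrays) were used as the authors left them; RMA and the affy package made them, per the submitters' processing notes, with no version given. Neither scanner files nor detection calls entered the work. RMA shrinks the differences of dim probe sets. Of 45101 probe sets 34958 carried 1 gene symbol. Each gene was its probe set with the highest mean, and 13271 of 18194 genes above the 40th percentile of probe set means were tested with limma 3.58.1 (R 4.3.3, lmFit and eBayes, 8 groups, 69 residual degrees of freedom, two-sided, Benjamini-Hochberg within each of 12 comparisons), after a check on simulated data. Arrays are single mice. Lists were described by counts without a set test. Named genes were up to 8 called enzymes at each end of a comparison, a panel of 14, and the 10 with a change of at least 1. The enzymes and lists were chosen with earlier results of these data known. Alternatives were run as a block, run alone, array weights, filters, probe set choice, normalisation and an oligodendrocyte covariate.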

Additional observations from a re-analysis of the deposited data

Results flagged for a closer look

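Of the 10 enzymes with a change of at least 1, values were examined in groups of up to 10 arrays for an array standing apart from its own group, in 50 groups. The saline, low-dose and high-dose groups of lesioned dSPN hold 11 or 12 arrays and were not examined. It was between these that the called changes of at least 1 were found. Chance alone marks about 1 group in 20, and 4 were marked. Ehmt1 had its lowest array in high-dose iSPN at 5.87, Kdm4c its highest in high-dose iSPN at 7.38, Kdm3b its highest in mock-lesioned dSPN at 7.73 and Kmt2c its highest in lesioned iSPN with saline at 11.65.

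The effect of a treatment differed between lines in 31 cases, given here as the change in dSPN minus the change in iSPN, each at an adjusted p under 0.05. For the lesion this was Hdac9 (-0.92). For the high dose the differences were Setd4 (2.53), Hdac5 (1.07), Kdm7a (0.81), Hdac3 (0.60), Kdm4b (-1.65), Kdm4c (-1.61), Kdm5d (-1.31), Kdm2b (-1.29), Ehmt1 (-1.21), Kdm4a (-0.97), Hdac11 (-0.85), Ezh1 (-0.81), Kdm3b (-0.81), Setd6 (-0.60), Kat7 (-0.60), Kmt2e (-0.52), Hdac2 (-0.42) and Ehmt2 (-0.41). For the low dose they were Setd4 (1.38), Hdac5 (0.81), Kdm7a (0.60), Kdm4b (-1.11), Kmt2c (-1.02), Kdm6a (-0.89), Kdm3b (-0.81), Hdac11 (-0.78), Kdm5c (-0.77), Kdm4c (-0.68), Kat7 (-0.58) and Kmt2e (-0.45).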

How the results depend on the processing

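Of 143 called results, 1264 values under alternatives were computed: 1067 kept the call, 196 kept the sign without passing and 1 changed sign, Kmt5a between the lines (0.028, adjusted p = 0.882) with the mean of its probe sets. These totals pool mild and strict alternatives. The random block found a correlation of -0.0211 within runs, so it made no allowance for arrays of a run being alike. It kept all 33 low-dose calls in dSPN, of which the fixed block kept 10. The numbers of enzymes called moved as follows, with the share of all genes called in the same fit in brackets. With run as a fixed block they were 0 for the lesion in dSPN (0.663%), in iSPN (0.799%) and for their difference (1.12%). The same block gave 11 for the low dose (13.9%) and 2 for high against low dose (1.31%) in dSPN. It gave 3 for the high dose in iSPN (1.88%), and 11 (15.7%) and 3 (5.3%) for the high-dose and low-dose differences between lines. With run as a random block they were 1 for high against low dose in iSPN (1.19%) and 2 for the lesion difference between lines (5.91%). With the oligodendrocyte covariate they were 24 (33.8%) and 19 (23.8%) for the high and low dose in dSPN. That covariate gave 0 (4.11%) and 7 (12.2%) for the lesion and low-dose differences between lines, and 8 (12.1%) for the lines in mock-lesioned mice. With each line fitted alone they were 2 for the lesion in dSPN (4.17%), 0 for the lesion in iSPN (2.64%) and 1 for the low dose in iSPN (1.15%). Array weights gave 4 for the dSPN lesion (5.85%) and 0 for the iSPN lesion (3.3%). A filter at the 60th percentile gave 0 for the lesion in iSPN (8.75%) and 2 for its difference between lines (7.27%). Renewed quantile normalisation also gave 2 for that difference (5.01%). The mean of probe sets gave 8 for high against low dose in dSPN (8.12%) and 3 for the lesion in iSPN (6.58%). Probe sets fitted singly gave 4 for the lesion in iSPN (5.39% of probe sets) and 2 for its difference between lines (4.13% of probe sets). Within single runs there were 0 in dSPN for the lesion (run 1, 0.0527%) and for high against low dose (run 3, 0.0527%). In iSPN there were 1 for the high dose (run 6, 0.46%) and 0 for the low dose (run 7, 0.0301%). Fewer arrays enter these last fits; otherwise the cause was not tested. No paired analysis was possible because each array is a different mouse and no array number recurs across groups.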
